A study of Mus musculus with 2 samples.

Results

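The complement set described here holds 9 genes: the chains of the C1q recognition molecule C1qa, C1qb and C1qc, the components C4b, C3 and Cfb, the inhibitor Serping1, and the anaphylatoxin receptors C3ar1 and C5ar1. They were chosen by gene symbol out of the 32285 genes listed in both single-cell libraries, and each was found once. A wider list of 53 complement genes, which includes them, was used to place them in the pathway. The libraries were made from meninges of male C57BL/6 mice (C57BL/6J in the study's methods), 10 weeks of age (10 to 12 weeks in another label), taken 1 week after a Sham procedure or after a mild closed-skull traumatic brain injury (TBI). In each group the dorsal meninges of 5 mice were pooled before sorting of live single cells and 3' single-cell RNA sequencing, the study's methods state that the directly injured site was not included, and each group is therefore 1 library. Differences between Sham and TBI have no replicate check, no test was run, and the intervals given are 95% counting intervals (exact Poisson for a level, exact binomial for a ratio or a share) that cover counting error only.

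Complement is a cascade of plasma and locally made proteins. C1q binds antibody or altered surfaces and, with its proteases, cleaves C4 and C2, which leads to cleavage of C3. Factor B, the product of Cfb, forms the alternative pathway convertase with C3b, C1 inhibitor (Serping1) blocks the C1 proteases, and the receptors C3ar1 and C5ar1 sense the released fragments C3a and C5a. In the nervous system C1q and C3 are best known for opsonising debris and for tagging synapses.

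All 9 members are protein-coding genes on the minus strand of GRCm38. C1qb, C1qc and C1qa lie side by side within 18.7 kb of chromosome 4 (136880129 to 136898803). C4b (34728380 to 34743882), Cfb (34856374 to 34862518) and C3 (57203970 to 57228136) lie on chromosome 17, the first pair in the class III region of the major histocompatibility complex. Serping1 lies on chromosome 2 (84765387 to 84775444), C3ar1 on chromosome 6 (122847138 to 122856161) and C5ar1 on chromosome 7 (16246743 to 16259540). RefSeq promoter windows (GRCm38.p6) were held for 5 of the 9 members: C1qb, C1qc, C3, C3ar1 and C5ar1. GENCODE, the source of the gene positions above, starts some of these genes farther upstream than RefSeq, so that 151 of the 250 bases before the RefSeq start lie inside the GENCODE gene for C1qc, 4 for C3ar1 and 202 for C5ar1. The bases outside the GENCODE gene are printed for C1qb and C1qc, whose levels followed each other across cell classes, for C3ar1, which followed them closely, and for C3, which did not. All 4 are on the minus strand, at chr4:136886201-136886450 (C1qb), chr4:136893066-136893164 (C1qc), chr6:122856162-122856407 (C3ar1) and chr17:57228137-57228386 (C3). Read 5′ to 3′ along the gene, capitals mark matches, on either strand, to any of 7 searched motifs.
C1qb: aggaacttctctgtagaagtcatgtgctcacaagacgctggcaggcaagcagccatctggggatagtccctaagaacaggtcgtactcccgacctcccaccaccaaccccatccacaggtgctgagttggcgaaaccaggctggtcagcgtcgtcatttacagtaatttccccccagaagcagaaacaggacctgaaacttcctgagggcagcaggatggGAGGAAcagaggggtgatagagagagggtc
C1qc: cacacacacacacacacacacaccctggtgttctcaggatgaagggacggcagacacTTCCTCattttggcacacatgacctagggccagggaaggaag
C3ar1: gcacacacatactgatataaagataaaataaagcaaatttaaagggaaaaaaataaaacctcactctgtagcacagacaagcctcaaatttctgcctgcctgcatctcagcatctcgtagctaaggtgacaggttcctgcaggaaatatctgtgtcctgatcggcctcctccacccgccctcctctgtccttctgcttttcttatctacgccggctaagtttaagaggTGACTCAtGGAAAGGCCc
C3: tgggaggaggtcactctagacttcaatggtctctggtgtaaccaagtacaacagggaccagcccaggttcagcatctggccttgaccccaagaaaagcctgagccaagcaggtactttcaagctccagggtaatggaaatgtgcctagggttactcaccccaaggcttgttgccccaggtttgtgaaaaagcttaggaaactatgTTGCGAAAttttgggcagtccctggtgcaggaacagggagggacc
The motifs were the PU.1 core GAGGAA, a MAF site TGCTGAC, C/EBP TTGCNNAA, AP-1 TGANTCA, ISRE GAAANNGAA, GAS TTCNNNGAA and NF-kB GGNNTTTCC. The PU.1 core was matched in C1qb (30 to 25 bases before the RefSeq start) and in C1qc (193 to 188 bases before it), as in 23.3% of the 32851 windows in the table. C3ar1 held an AP-1 match (22 to 16 bases before the start, the motif being in 6.75% of windows) next to an NF-kB match (14 to 6 bases, 4.93% of windows), which share no base. C3 held a C/EBP match (45 to 38 bases, 9.56% of windows). The ISRE match of C5ar1 (66 to 58 bases, 7.13% of windows) lies inside its GENCODE gene and is not printed. These are letter matches and not measured binding sites.

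After filtering, 2043 Sham cells (7866611 UMIs, median 2764 per cell) and 3773 TBI cells (13940740 UMIs, median 2663) were kept. A UMI marks 1 captured RNA molecule, and levels are given as CPM, the summed UMIs of a gene in a class scaled to 1000000 summed UMIs of that class. Cells were clustered without any of the 53 complement genes and named from markers that hold none of them, which gave 19 named classes and 1 unnamed cluster. The libraries stood apart in composition: fibroblast-like cells, a class marked by collagen and matrix genes, made up 5.87% of Sham and 20.1% of TBI cells, and B-like cells 18.0% and 7.63%. Barcodes above the 5% hemoglobin limit were 22.4% of the Sham and 9.91% of the TBI library, and 14 barcodes were shared between the libraries among kept cells. Choroid plexus-like and pineal-like cells were present beside the meningeal classes.

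C1q transcripts belonged to macrophage-like cells. This class held 95.7% of all C1qa, 95.4% of C1qb and 96.1% of C1qc UMIs, from 387 Sham and 832 TBI cells. C1qa was at 6305 CPM (6181 to 6431) in Sham and 6391 (6309 to 6474) in TBI, a log2 ratio of 0.020 (-0.014 to 0.054). C1qb was at 6685 CPM in Sham and 7452 in TBI (log2 ratio 0.16, 0.12 to 0.19), and C1qc at 5182 and 5837 (0.17, 0.13 to 0.21). C1qb and C1qc were thus slightly higher in the TBI library beyond counting error, while the interval for C1qa included 0, and no chain approached a 2-fold difference. With the clusters of the class weighted equally, the log2 ratios were 0.080 for C1qb and 0.11 for C1qc, below these intervals. Of all C1q UMIs in this class 33.1% were C1qa, 37.6% C1qb and 29.3% C1qc. These are 3' molecule counts, so they were not divided by transcript length.

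**Figure D1:**
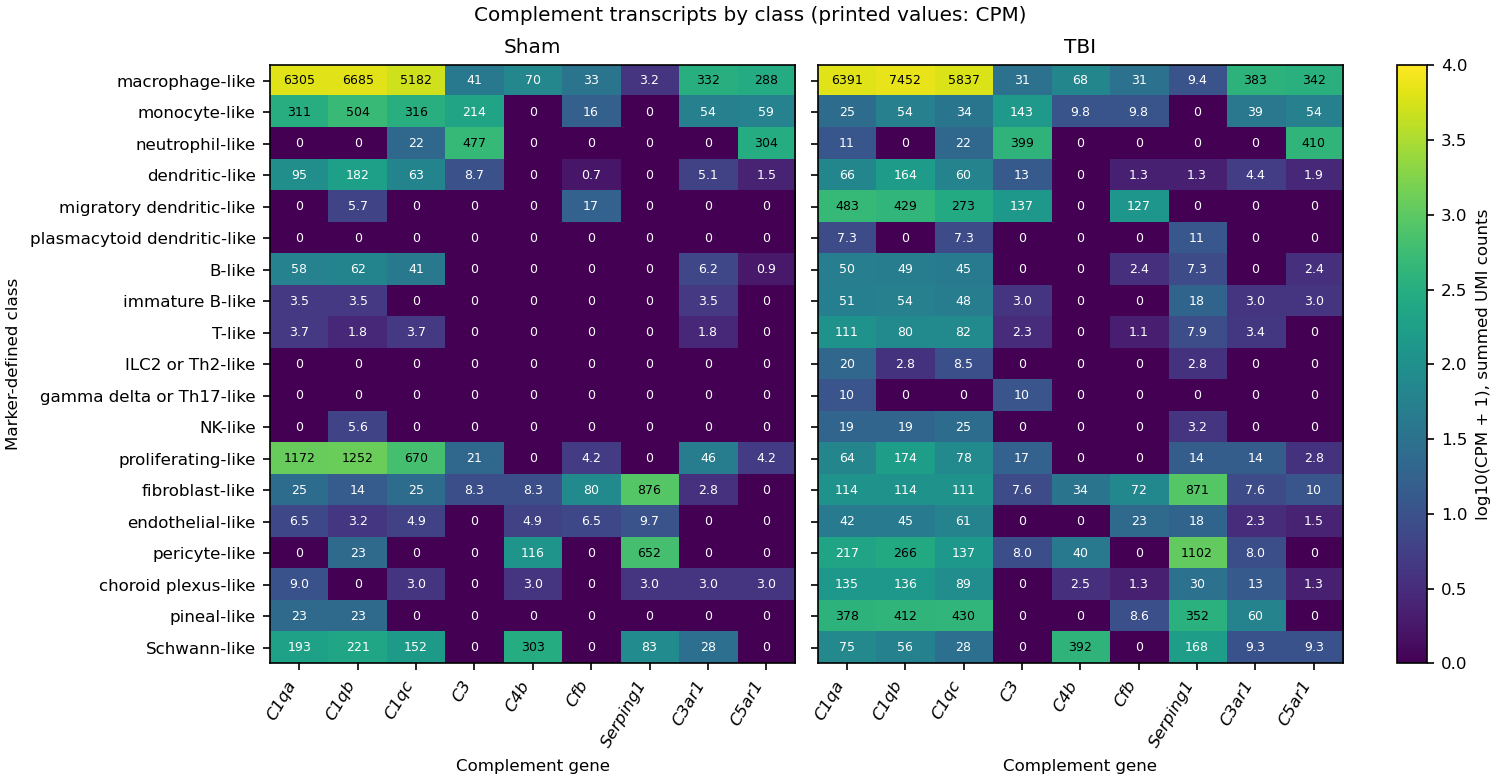
Levels of the 9 complement genes (columns, CPM printed in each cell, colour on a log10(CPM + 1) scale) in 19 marker-defined classes (rows) of the Sham and the TBI library. C1qa, C1qb and C1qc are at 5182 CPM or more in the macrophage-like class of both libraries, whereas Serping1 is led by fibroblast-like and pericyte-like cells and C3 by neutrophil-like cells.

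Most macrophage-like cells carried every chain: 81.9% of Sham and 86.4% of TBI cells had a UMI of all 3. A C1qa UMI was found in 88.4% and 90.02% of them, against 1.63% and 3.13% of B-like cells, which are not known to make C1q (median depth 1942 and 3564 UMIs in macrophage-like cells, 3082.5 and 2660 in B-like cells). After thinning every cell to 1000 UMIs, which left out 112 Sham and 154 TBI macrophage-like cells, the shares with C1qa were 89.5% and 94.5%. The depth of this class differed between the libraries, and its part in these shares was not tested.

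The class was made of 3 clusters with distinct complement profiles. The cluster led by Cd209f and Folr2, genes of resident border macrophages, had the highest C1q. There C1qa was at 8673 CPM in Sham (115 cells) and 7518 in TBI (305 cells), a log2 ratio of -0.21 (-0.25 to -0.16). C1qb was level at 8342 and 8339 CPM, and C1qc was at 7366 and 7237. In the cluster led by Cx3cr1 and Fcgr4 (100 and 268 cells) all 3 chains were higher in TBI: C1qa at 5139 and 5946 CPM (log2 ratio 0.21, 0.16 to 0.26), C1qb at 6235 and 7497 (0.27, 0.22 to 0.31), and C1qc at 4112 and 5053 (0.30, 0.24 to 0.36). The near-equal C1qa of the whole class thus covered clusters with differences of opposite sign, and its log2 ratio was -0.067 when the clusters were weighted equally. The mix of clusters differed as well, the third cluster holding 172 of the 387 Sham and 259 of the 832 TBI cells of the class. The part of this mix in the class ratio was not tested. Whether the clusters differ beyond library-to-library variation cannot be tested with 1 library per group.

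The third cluster, led by Ccl8 and Hpgds (172 and 259 cells), was shallow, with medians of 867.5 and 967 UMIs per cell. C1qa there was at 3903 CPM in Sham and 3452 in TBI, and 63.4% and 61.0% of its cells carried all 3 chains, against 100% and 99.7% in the Cd209f cluster. Hemoglobin made up 0.486% of its UMIs in Sham and 0.0689% in TBI, and the part of that in the level of C1q was not tested. Without this cluster, log2 ratios of the whole class stayed within their counting intervals for each of the 7 members led by it.

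**Figure D2:**
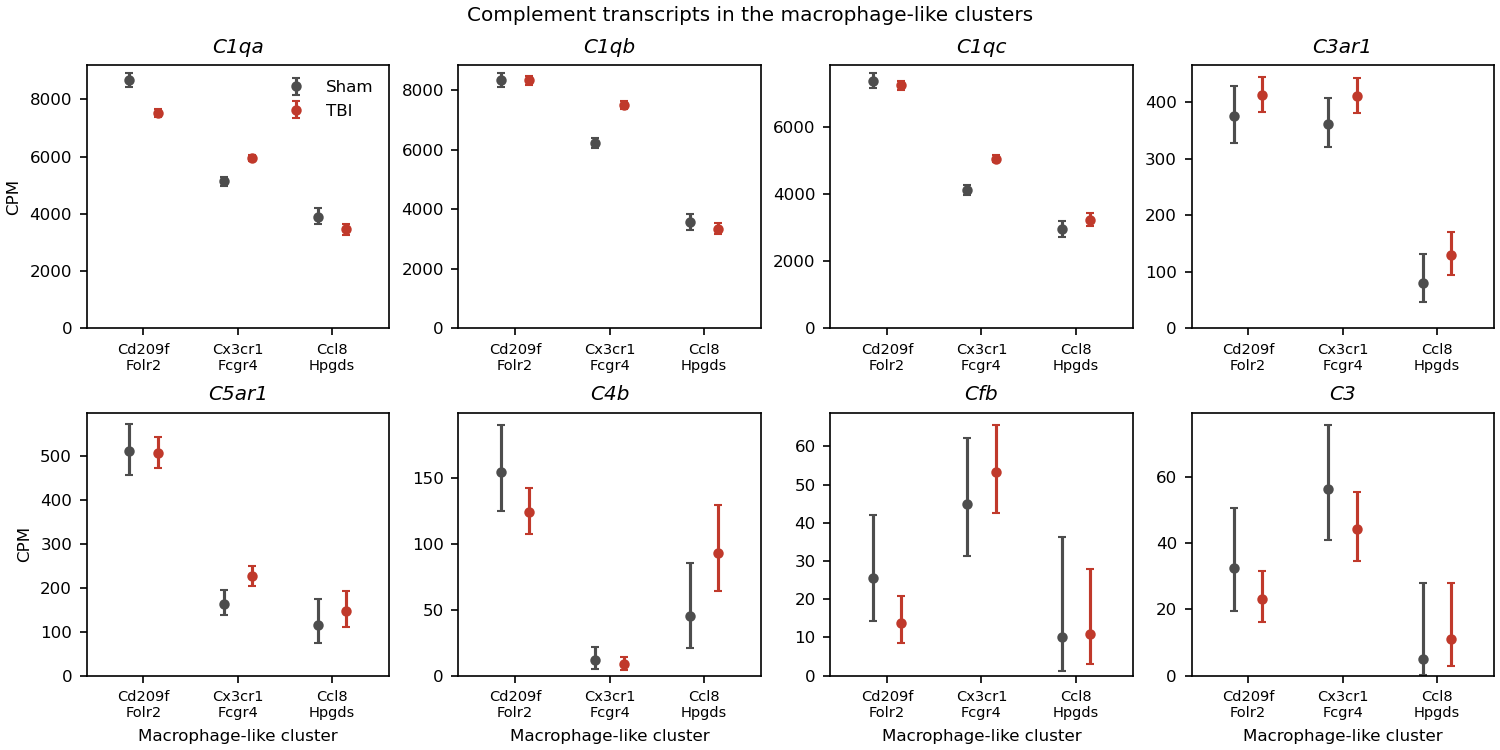
CPM (vertical axes, starting at 0) of 8 complement genes in the 3 macrophage-like clusters, named by their leading genes, in Sham (grey) and TBI (red). Points are levels of summed UMIs and bars 95% Poisson counting intervals. C1qa is lower in TBI in the Cd209f cluster and higher in the Cx3cr1 cluster, and C4b is highest in the Cd209f cluster and lowest in the Cx3cr1 cluster.

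C4b, whose product is the classical pathway substrate cleaved by C1s, was led by macrophage-like cells with 67.4% of its UMIs, at 69.5 CPM in Sham and 68.4 in TBI (log2 ratio -0.028, -0.35 to 0.31, and 0.38 when counts per 10000 were averaged over cells). Within that class it was at 155 and 124 CPM in the Cd209f cluster but at 11.5 and 8.47 in the Cx3cr1 cluster, and the counting intervals of these clusters did not overlap in either library. Its highest level was in Schwann-like cells, the glia of peripheral nerve, at 303 CPM in Sham (22 UMIs) and 392.2 in TBI (42 UMIs), a log2 ratio of 0.35 (-0.41 to 1.19). Nearly all of that came from the cluster led by Gfra3 and Kcna1, at 470 and 531 CPM. In fibroblast-like cells C4b was at 8.29 CPM in Sham (3 UMIs, 1.71 to 24.2) and 33.9 in TBI (76 UMIs in 44 cells, 26.7 to 42.4), a log2 ratio of 1.82 (0.43 to 4.34). B-like cells held 0 C4b UMIs in both libraries, with counting intervals that reach 3.25 CPM in Sham and 4.51 in TBI. C4a, a near-identical neighbour on chromosome 17, had 7 UMIs in all, so how reads were divided between the pair is uncertain.

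C3, the central component, was a myeloid transcript here. Its highest level was in neutrophil-like cells, at 477 CPM in Sham (22 UMIs in 16 cells of which 56.3% had a C3 UMI) and 399 in TBI (37 UMIs, 26 cells, 57.7%), followed by monocyte-like cells at 214 and 143 CPM (40 and 29 UMIs). The log2 ratios of -0.27 (-1.06 to 0.57) and -0.58 (-1.33 to 0.14) both included 0. Macrophage-like cells were more numerous and held 44.3% of C3 UMIs, at 40.8 CPM in Sham and 31.4 in TBI (log2 ratio -0.38, -0.83 to 0.088), most of it in the Cx3cr1 cluster (56.3 and 44.2 CPM). A single cell held 35.9% of the 64 Sham UMIs of this class, and with the cell of most C3 UMIs left out of each library the level was 26.5 CPM in Sham and 28.0 in TBI (log2 ratio 0.067, -0.46 to 0.64), so the sign turned. The same step gave 0.11 (-0.80 to 1.13) in neutrophil-like and -0.81 (-1.66 to -0.0040) in monocyte-like cells. No named class with at least 20 C3 UMIs from more than 1 cell had a 2-fold difference. B-like cells held 0 C3 UMIs in both libraries.

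Cfb, the alternative pathway protease, was shared between stromal and myeloid cells. Fibroblast-like cells held 43.9% of its UMIs, at 80.1 CPM in Sham (29 UMIs) and 71.8 in TBI (161 UMIs), a log2 ratio of -0.18 (-0.73 to 0.47). By library that share was 31.2% in Sham and 47.4% in TBI. Macrophage-like cells held 55.9% of the Sham and 33.5% of the TBI UMIs, at 33.2 and 31.4 CPM, so they led Cfb in Sham. Among fibroblast-like cells the cluster led by Ptgds and Dcn was at 86.1 and 92.9 CPM. The cluster led by Snhg11 and Foxp2 was at 63.3 CPM in Sham and 16.2 in TBI (6 and 10 UMIs), a log2 ratio of -2.01 (-3.56 to -0.22), and 1 cell held 50% of the Sham UMIs. That cluster had 13 of the 16 fibroblast markers at least 2-fold higher than in other cells but only 1 of them among its 50 leading genes. In macrophage-like cells Cfb was highest in the Cx3cr1 cluster (44.8 and 53.2 CPM), where C4b was lowest. There 1 cell held 51.4% of the Sham and 1 cell 26.1% of the TBI UMIs. The order of the clusters without these cells was not computed. In endothelial-like cells, which line vessels, it was at 6.48 CPM in Sham (4 UMIs) and 22.8 in TBI (30 UMIs in 25 cells), a log2 ratio of 1.67 (0.31 to 3.78), against 2.45 CPM (2 UMIs) in TBI B-like cells.

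Serping1, the inhibitor of C1r and C1s, belonged to stromal cells. Fibroblast-like cells held 86.4% of its UMIs and showed the same level in both libraries, 876 CPM in Sham (317 UMIs, 782 to 977) and 871 in TBI (1952 UMIs, 833 to 910), with a log2 ratio of -0.0095 (-0.18 to 0.17, and 0.23 when counts per 10000 were averaged over cells). The Ptgds and Dcn cluster was at 1085 and 1105 CPM, and the Snhg11 and Foxp2 cluster at 285 and 254, so the clusters differed more than the libraries did. Pericyte-like cells, the mural cells of small vessels, had 652 CPM in Sham (28 UMIs) and 1102 in TBI (137 UMIs), a log2 ratio of 0.74 (0.16 to 1.40), or 1.10 (0.41 to 1.94) with the cell of most Serping1 UMIs left out of each library. Serping1 in macrophage-like cells was at 3.19 CPM in Sham (5 UMIs) and 9.37 in TBI (34 UMIs), a log2 ratio of 1.44 (0.19 to 3.27). Of these, 16 TBI UMIs were in 13 cells of the shallow Ccl8 cluster, at 43.8 CPM (25.02 to 71.1). Sham had 0 there, where the floor of 3 counts given to a 0 is 15.1 CPM. The Cd209f cluster was at 5.11 and 6.22 CPM and the Cx3cr1 cluster at 2.56 and 4.84, beside 7.33 CPM (6 UMIs) in TBI B-like cells, which are not known for this protein. The part of free RNA in these values was not tested.

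C3ar1, the receptor for C3a, was found mainly in macrophage-like cells, with 94.8% of its UMIs. It was at 332 CPM in Sham (520 UMIs, 304 to 361) and 383 in TBI (1390 UMIs, 363 to 404), a log2 ratio of 0.21 (0.062 to 0.36). Its level was alike in the Cd209f cluster (377 and 413 CPM) and the Cx3cr1 cluster (362 and 411 CPM), where each log2 ratio taken alone included 0. The whole class was below both of these clusters in each library, so C3ar1 was lower in the shallow Ccl8 cluster. C5ar1, the receptor for C5a, had 93.7% of its UMIs in the same class, at 288 CPM in Sham (451 UMIs) and 342 in TBI (1240 UMIs), a log2 ratio of 0.25 (0.092 to 0.41). Unlike C3ar1 it differed between the Cd209f cluster, at 511 and 506 CPM, and the Cx3cr1 cluster, at 164 and 226 (log2 ratio there 0.46, 0.17 to 0.76). Neutrophil-like cells also carried it, at 304 CPM in Sham and 410 in TBI (14 and 38 UMIs), but held 0 C3ar1 UMIs in either library.

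Across the 19 named classes, with both libraries summed, log2(CPM + 10) of C1qa followed C1qb (Pearson r = 0.985), C1qc (0.979), Ms4a7 (0.94) and C3ar1 (0.87). The closest genes to C3ar1 were Trem2 (0.971) and Csf1r (0.911), and those to C5ar1 were Tlr8 (0.975) and its sister receptor C5ar2 (0.967). C3 was most like the cytokine gene Il1b (0.943) and the leukocyte receptor gene Lilr4b (0.936), and its r with C1qb was 0.169. C4b was most like the myelin gene Pmp22 (0.93), Cfb like Il18bp (0.857), and Serping1 like Mir100hg (0.982) and Meg3 (0.97). Ms4a7 and Csf1r were among the markers that named macrophage-like cells, and Pmp22 among those for Schwann-like cells. Their closeness to members is therefore not independent of the naming. These values describe how levels varied together over 19 classes from the same libraries, and they carry no test.

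Over all kept cells the picture was different. Serping1 was at 46.1 CPM in Sham (363 UMIs) and 162 in TBI (2264 UMIs), a log2 ratio of 1.81 (1.65 to 1.98), and Cfb at 11.8 and 24.4 CPM, a log2 ratio of 1.04 (0.71 to 1.39). They were the 2 of 9 members at least 2-fold higher in TBI, where 9.27% of the 14782 genes with at least 20 UMIs were as well, and 0 of 9 were 2-fold lower (1.88% of genes). C1qa, C1qb and C1qc had log2 ratios of 0.38, 0.50 and 0.54, C4b 0.58, C3ar1 0.55 and C5ar1 0.63, and C3 was level at -0.017 (-0.31 to 0.29). The shares of the classes in the summed UMIs were then moved alone, each class being kept at its level over both libraries. The log2 ratio of Serping1 was then 1.56 and that of Cfb 0.78. When only the class levels were moved, they were 0.15 and 0.16. For C1qa the same values were 0.37 and 0.021, and for C5ar1 0.37 and 0.27. These shares are of UMIs, so they hold both the number of cells of a class and the RNA per cell of it. Macrophage-like cells held 19.9% of Sham and 26.0% of TBI UMIs, but were 18.9% and 22.1% of cells. Cell number and RNA per cell were not told apart.

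**Figure D3:**
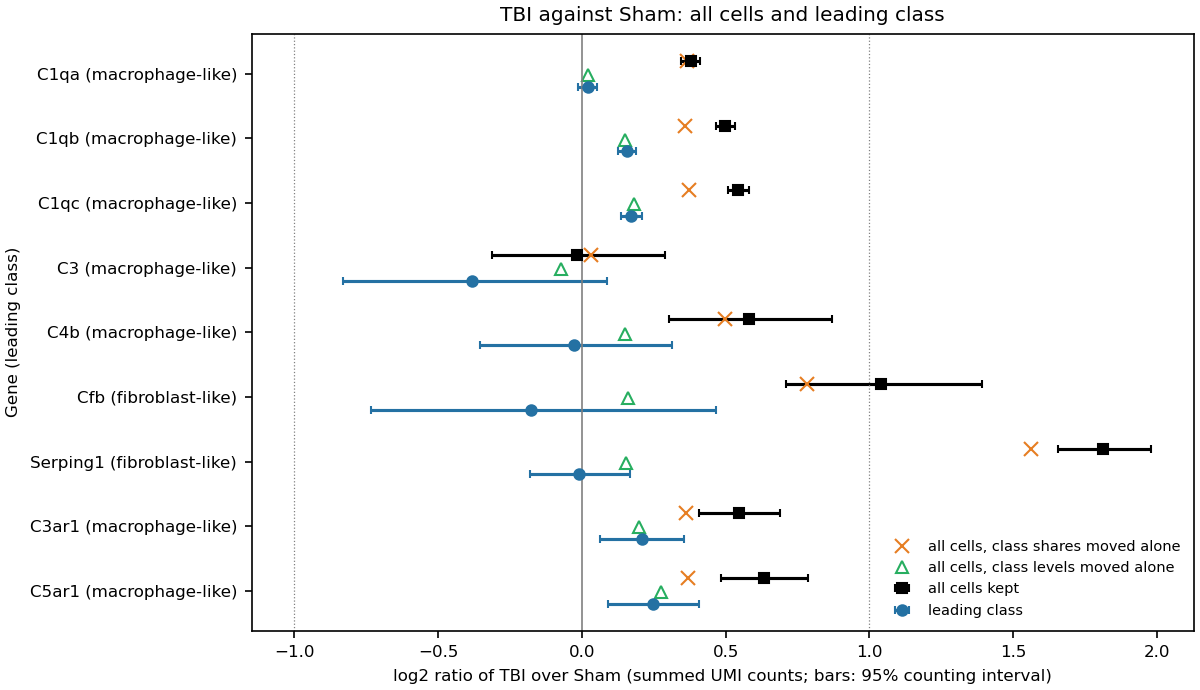
Log2 ratio of TBI over Sham (horizontal axis) for the 9 members over all cells kept (black squares) and in the class holding most of each gene's UMIs (blue circles), with 95% counting intervals. That class was taken over both libraries, and for Cfb macrophage-like cells held more of the Sham UMIs. Crosses and triangles give the all-cell ratio when only class shares of UMIs or only class levels were moved. Serping1 is at 1.81 over all cells and at -0.0095 within fibroblast-like cells, and dotted lines mark a 2-fold difference.

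Counted class by class, a member was called where it had at least 20 UMIs over both libraries and a 2-fold difference. A member often met that minimum through 1 library alone, so these counts are a description. In macrophage-like cells 1 of 9 members (Serping1) was higher in TBI, against 2.65% of 9913 genes, and 0 were lower (1.1%). In fibroblast-like cells 5 of 8 were higher (C1qa, C1qb, C1qc, C4b and C5ar1), against 4.93% of 10474 genes, and 0 were lower (3.24%). C5ar1 there had 0 Sham UMIs and 23 in TBI, 1.24-fold the level of the floor of 3 counts given to a 0. In endothelial-like cells 4 of 5 were higher (the C1q chains and Cfb), against 3.35% of genes, and 0 were lower (1.07%). The share was 3 of 3 higher in T-like cells (3.58% of genes), 2 of 3 in pericyte-like (11.3%), 4 of 4 in choroid plexus-like (3.5%), 4 of 4 in pineal-like (16.1%) and 5 of 5 in migratory dendritic-like cells (5.8%). Members were lower in TBI in monocyte-like cells (3 of 5, against 3.09% of genes), proliferating-like cells (3 of 3, 3.48%) and Schwann-like cells (2 of 4, 4.54%). All of these were C1q chains. Without cells of 10 or more C1q UMIs, the log2 ratio of summed C1q turned to 1.84 (-0.14 to 5.33) in monocyte-like cells. It turned to 1.69 (0.078 to 4.28) in Schwann-like cells and was -1.80 (-3.76 to -0.18) in proliferating-like cells. These ratios rest on few UMIs (Sham, then TBI): 2 and 10 in monocyte-like, 3 and 17 in Schwann-like, and 10 and 5 in proliferating-like cells. In neutrophil-like cells 0 of 2 were called (4.52% of genes higher and 6.91% lower), in dendritic-like cells 0 of 4 (2.19% and 1.45%) and in B-like cells 0 of 3 (2.41% and 2.17%). In B-like cells 1 cell held 94.5% of the Sham C1q and 1 cell 72.9% of the TBI C1q. Without cells of 10 or more C1q UMIs, the log2 ratio of summed C1q was 2.1 (1.09 to 3.34) in B-like cells. It was -0.34 (-0.95 to 0.27) in dendritic-like cells. The calls in choroid plexus-like and pineal-like cells were the C1q chains and Serping1. Serping1 had 0 Sham and 41 TBI UMIs (in 8 cells) in pineal-like cells, 5.10-fold the level of the floor of 3 counts given to a 0. In choroid plexus-like cells it had 1 and 24 UMIs, a log2 ratio of 2.79 (0.73 to 8.71), with 58.3% of the TBI UMIs in 1 cell.

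Of the 36 calls, 28 were C1q chains, and C1q outside macrophage-like cells sat in very few cells. In Sham, 19 of 1647 such cells carried 10 or more C1q UMIs and held 93.5% of the C1q UMIs outside macrophage-like cells, and in TBI 41 of 2894 held 83.9%. In Schwann-like cells 1 Sham cell, a predicted doublet, held 92.7% of the Sham C1q of the class. In monocyte-like cells 1 Sham cell, not a predicted doublet, held 99.1% of the class's Sham C1q. In migratory dendritic-like cells 1 TBI cell, a predicted doublet, held 98.4% of the TBI C1q. In T-like cells 2 TBI cells with 10 or more C1q UMIs held 85.5% of the TBI C1q. They were predicted doublets, as was the 1 such B-like cell of each library. In pineal-like cells 2 such TBI cells held 95.8%, and 0 of them was a predicted doublet. The 28 C3 UMIs of the migratory dendritic-like class also came from 1 TBI cell, and 1 cell held 92.3% of its TBI Cfb UMIs. All 8 such fibroblast-like and all 5 such endothelial-like TBI cells were predicted doublets (droplets holding more than 1 cell), as were 23 of the 41 TBI cells and 3 of the 19 Sham cells. The number flagged was fixed in advance from each library's cell number, at 1.62% of kept Sham and 3.02% of kept TBI cells. The high cells had a median depth of 10890 UMIs in Sham and 5961 in TBI.

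With those cells left out, the level of C1q outside macrophage-like cells was 18.0 CPM in Sham (110 UMIs, 14.8 to 21.7) and 44.9 in TBI (446 UMIs, 40.8 to 49.3), and 4.05% and 11.6% of cells had a C1q UMI. In TBI the share was 9.06% of B-like, 9.25% of T-like, 12.2% of NK-like, 11.6% of fibroblast-like and 11.8% of endothelial-like cells. In Sham it was 1.91%, 2.63%, 2.06%, 6.72% and 2.90%. The extremes in TBI were 3.33% in gamma delta or Th17-like cells (1 of 30) and 19.6% in Schwann-like cells (9 of 46). The TBI Schwann-like level was 159 CPM (92.5 to 254), against the 44.9 CPM of all these classes together. It rests on 17 UMIs, 41.2% of them in 1 cell. A low share was thus found in classes of unlike lineage, some of which are not known to make C1q, and the part of free RNA in it was not tested. In TBI the low cells divided their C1q UMIs into 33.9% C1qa, 34.1% C1qb and 32.1% C1qc, where macrophage-like cells had 32.5%, 37.9% and 29.7%. The total of the library held more C1q in TBI (5319 against 3835 CPM), and its part in these low shares was not tested.

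**Figure D4:**
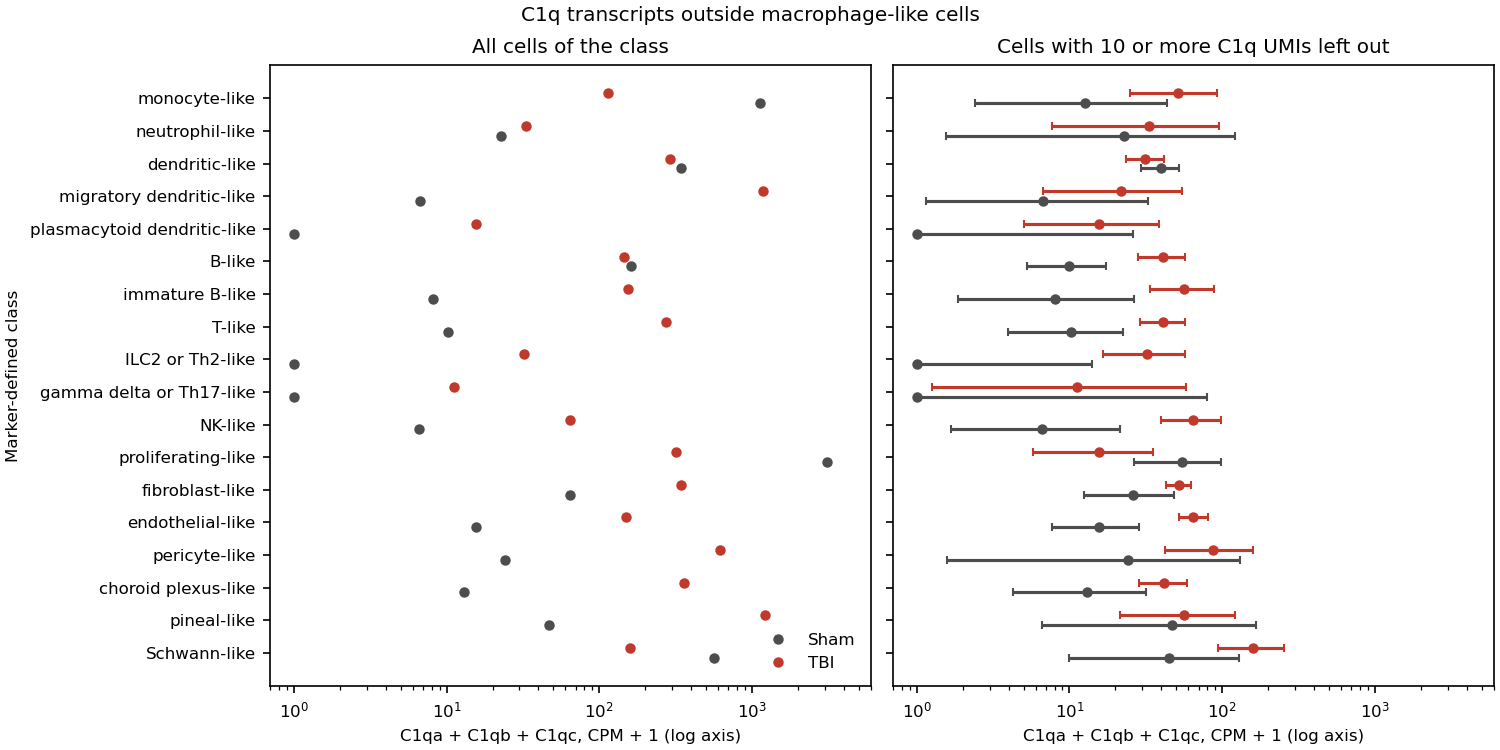
Summed C1qa, C1qb and C1qc level (CPM + 1, log axis) in each class other than macrophage-like, with all cells (left) and without cells holding 10 or more C1q UMIs (right, with 95% Poisson counting intervals), in Sham (grey) and TBI (red). On the left, Sham and TBI differ in both directions and on the right B-like, T-like and fibroblast-like cells of the TBI library lie at 39.7, 40.2 and 50.9 CPM.

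The C1q of dendritic-like cells, the conventional antigen-presenting class, was weighted to C1qb. These cells had 340 CPM of C1q in Sham and 291 in TBI, of which 10 of 130 and 11 of 190 cells held 89.5% and 90.1%, and 0 of these cells was a predicted doublet. C1qb made up 53.5% of their C1q in Sham (48.9 to 58.1) and 56.5% in TBI (51.8 to 61.0), against 36.8% and 37.9% in macrophage-like cells. The level of C1qb was 182 CPM in Sham and 164 in TBI, a log2 ratio of -0.15 (-0.40 to 0.11). The skew to C1qb was thus present in both libraries. Other classes departed from the macrophage-like make-up in TBI as well. C1qb made up 54.9% (45.2 to 64.2) of C1q in proliferating-like cells, with 80.5% of the UMIs in 1 cell, and 29.3% (23.7 to 35.5) in T-like cells, with 57.9% in 1 cell. C1qc made up 41.3% (34.4 to 48.6) in endothelial-like cells, against 29.7% in macrophage-like cells. There 5 of the 579 TBI endothelial-like cells, all predicted doublets, held 57.7% of the C1q UMIs.

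The 44 other genes of the wider list were mostly led by other cells. Of these, 22 had at least 20 UMIs in at least 1 class and 7 had 0 UMIs: the lectins Mbl1, Mbl2 and Colec10, factor D (Cfd), factor I (Cfi), C8b and Cd55b. Of all 53 genes, 24 reached the minimum in macrophage-like cells, where 3 were at least 2-fold higher in TBI (Clu, Serping1 and Vtn), against 2.65% of all genes tested, and 1 was lower (Colec12, 35.1 and 14.3 CPM, log2 ratio -1.29), against 1.1%. The median log2 ratio of these 24 was 0.0060, beside 0.015 over all genes tested. In fibroblast-like cells 7 of 23 were higher (4.93% of all genes) and 0 lower (3.24%), with a median of 0.34 beside -0.034. In endothelial-like cells 6 of 13 were higher (3.35%) and 0 lower (1.07%), with a median of 0.82 beside 0.015. The C1q chains are 3 of the genes higher in each of these last classes. A listed gene could likewise meet the minimum through 1 library alone, as C1qb did in endothelial-like cells (2 Sham and 60 TBI UMIs). These counts and medians are therefore a description.

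The proteases that C1q activates were led by stromal cells, unlike C1q itself. C1ra had 66.7% and C1s1 59.0% of its UMIs in fibroblast-like cells, at 96.7 and 90.6 CPM for C1ra and 41.4 and 40.2 for C1s1 (Sham, then TBI), and C2, the partner of C4b, had 50.7%, at 74.6 and 65.6. Split by library (Sham, then TBI), these fibroblast-like shares were 59.3% and 68.1% for C1ra and 48.4% and 61.2% for C1s1. For C2 they were 35.1% and 55.3%. C1s1 was highest in pericyte-like cells, at 326 and 362 CPM. The lectin ficolin A (Fcna) was led by macrophage-like cells, at 37.0 CPM in Sham and 19.6 in TBI (log2 ratio -0.92, -1.44 to -0.39). Properdin (Cfp), which stabilises the alternative convertase, was also led by macrophage-like cells, at 332 and 378 CPM, but B-like cells carried it too, at 183 and 227.

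Regulators and receptors of the list divided by lineage. Vitronectin (Vtn) was highest in pericyte-like cells, at 1211 and 2519 CPM (log2 ratio 1.04, 0.63 to 1.51). Clusterin (Clu) was highest in pineal-like cells, and choroid plexus-like cells held 39.99% of its UMIs at 2122 and 1909 CPM. The membrane inhibitors Cd59a and Csmd1 were highest in Schwann-like cells, at 974 and 323 CPM over both libraries. Cd55 and the C3d receptor Cr2 were led by B-like cells, with 60.5% and 97.0% of their UMIs. Among integrin receptors for cleaved C3, Itgam was highest in neutrophil-like cells (468 CPM) and Itgb2 in NK-like cells (816 CPM). Cd93, which is not an integrin, was led by endothelial-like cells with 53.2% of its UMIs.

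Of the remaining listed genes past the minimum, Cr1l was found in nearly every class, with 78.6 CPM over all cells and a log2 ratio of 0.16 (0.015 to 0.31). Colec12 and Susd4 were led by fibroblast-like cells with 41.8% and 90.3% of their UMIs, Cd46 by the same class with 35.6% of only 59 UMIs, and Cd59b by choroid plexus-like cells with 56.7%. These shares are over both libraries, and that of Colec12 was 20.2% in Sham and 49.5% in TBI. Itgax was led by dendritic-like cells at 130 and 124 CPM and C5ar2 by macrophage-like cells at 19.1 and 19.9 CPM.

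**Figure D5:**
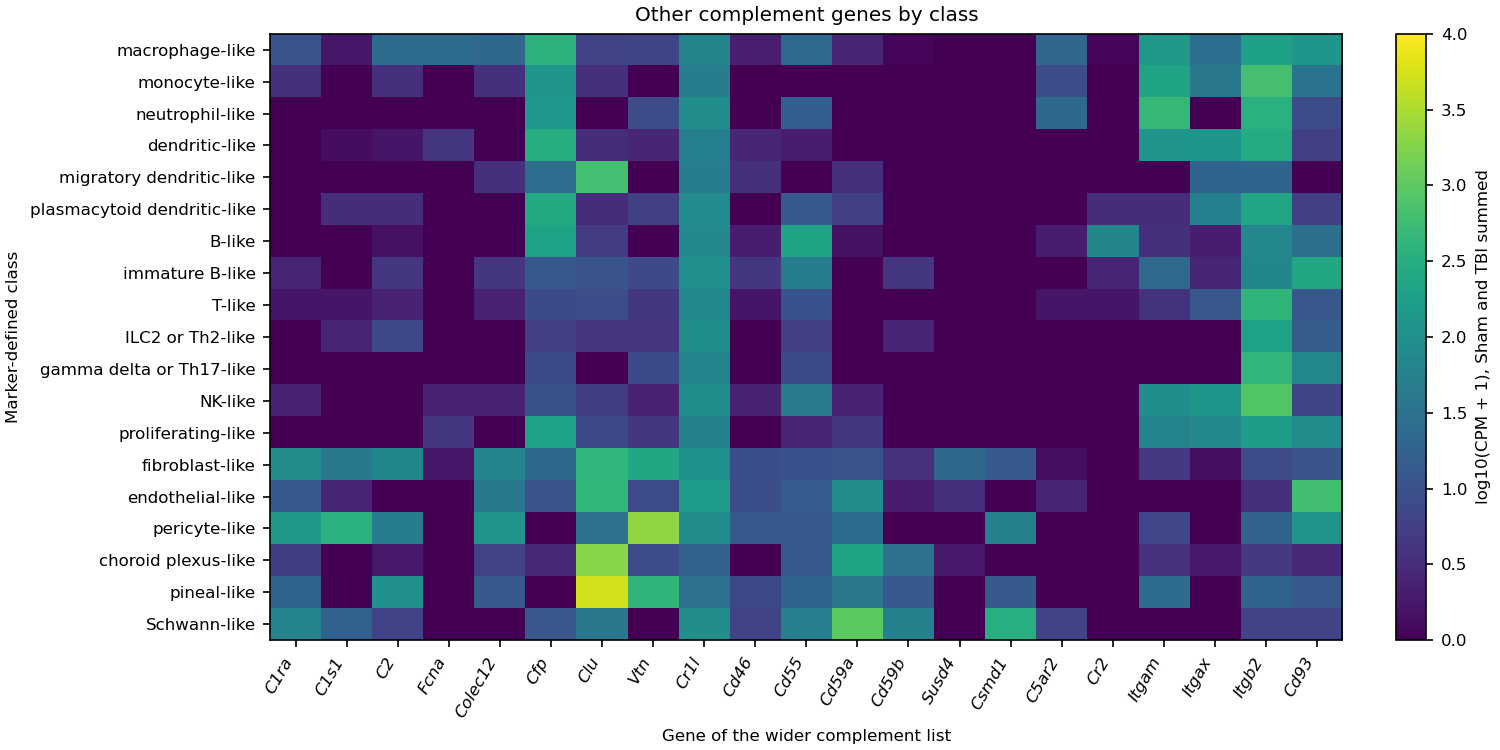
Level of 21 of the 22 other complement genes with at least 20 UMIs in a class (columns; colour is log10(CPM + 1) with Sham and TBI summed) in the 19 named classes (rows). C1s1 is highest in pericyte-like cells (353 CPM) and Cr2 in B-like cells.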

How the data were processed

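Meningeal cells were profiled in 1 Sham and 1 TBI library, each a pool of 5 mice. The authors aligned reads to mm10 with Cell Ranger, and the deposited matrices hold raw UMI counts per gene and barcode. The submitters' processing notes name Cell Ranger 2.1.1, Seurat 3.9.9 and DESeq2 1.30.0, and the matrix headers name software version 3.1.0, while the study's methods name another Cell Ranger release, so which release made the counts is unclear. Barcodes with 150 to 5000 genes, at most 20% mitochondrial and at most 5% hemoglobin UMIs were kept. Counts were scaled to 10000 per cell, and 2000 variable genes without complement genes, 20 components, 20 neighbours and Leiden clustering (leidenalg 0.10.2, resolution 0.8, seed 1) gave clusters. A cluster was named from the class with the largest share of its markers at least 2-fold higher than in other cells, with at least 3 such markers, at least 1 marker among its 50 leading genes, and no other class with more markers among the first 10; a cluster that met the share but had none among the 50 stayed unnamed. Doublets were predicted from simulated pairs (33 Sham cells, 1.62%, and 114 TBI cells, 3.02%) and left in, with their removal as an alternative. The number flagged was fixed in advance from the number of kept cells of each library. These shares are therefore not measured doublet rates.

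Counts were summed by class and library. Log2 ratios had 0.5 added to each sum, and a call needed a 2-fold difference and at least 20 UMIs. With 1 library per group no test was run and the spread between mice cannot be measured. Intervals were exact (scipy 1.17.1, level 95%), and a count of 0 was given a floor of 3 counts. The ratio code was tested on simulated data. The members, gene lists and rules were chosen with earlier results of these data known. Named genes were the 9 members, listed complement genes with at least 20 UMIs in 1 class, the genes leading a cluster, and for each member the 5 genes (at least 100 UMIs) with the highest Pearson r over classes, of which the first are named. Cells with 10 or more C1q UMIs were singled out, and the class shares and class levels moved alone, after seeing the data. Dendritic-like C1q was likewise described after its values were seen. The ISRE and NF-kB motifs were shortened from 10 to 9 letters after a first scan, to keep within a length limit on written sequences; the longer forms were rarer and C5ar1 had no match to them. Of the genes that the rule for named genes takes in, 1 listed complement gene and 1 gene leading a cluster are not reported here; the former stays in the counts over the list.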

Additional observations from a re-analysis of the deposited data

Results flagged for a closer look

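The C1q chains had log2 ratios of opposite sign in fibroblast-like and proliferating-like cells, and the difference between these classes was not tested. C1qa was at 2.12 in fibroblast-like and -4.16 in proliferating-like cells, C1qb at 2.91 and -2.84, and C1qc at 2.09 and -3.07. In both classes few cells held these UMIs: 8 of 758 TBI fibroblast-like cells held 85.4% of the C1q of that class, and 5 of 30 Sham proliferating-like cells held 98.6%. Without cells of 10 or more C1q UMIs, the log2 ratio of summed C1q was 0.95 (0.046 to 2.19) in fibroblast-like and -1.80 (-3.76 to -0.18) in proliferating-like cells. These ratios rest on 9 Sham and 111 TBI UMIs in fibroblast-like and on 10 Sham and 5 TBI UMIs in proliferating-like cells. The proliferating-like class was named from cell cycle genes and can hold dividing cells of any type.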

How the results depend on the processing

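Of 135 alternative log2 ratios for the 9 members in the class holding most of their UMIs, 125 stayed within the main counting interval and none of the 9 was past 2-fold in any of them. Naming cells one by one gave -0.045 for C1qa, 0.088 for C1qb and 0.084 for C1qc, and weighting the macrophage-like clusters equally gave -0.067, 0.080 and 0.11. Averaging counts per 10000 over cells, which weights shallow cells more, gave -0.015 for C1qa, 0.38 for C4b, 0.51 for C3ar1 and 0.23 for Serping1. With predicted doublets removed, macrophage-like cells held 98.0% of C1qa, 97.3% of C1qb, 98.1% of C1qc, 96.8% of C3ar1 and 95.04% of C5ar1 UMIs. With complement genes in the clustering they held 95.8% of C1qb, 95.9% of C1qc and 50.5% of C3 UMIs. The cause of these moves was not tested.

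Of the 53 listed genes, 3 were called higher and 1 lower in TBI in macrophage-like cells. A minimum of 50 UMIs gave 0 higher, no minimum gave 6 higher and 3 lower, and a 1.5-fold threshold gave 3 lower. In fibroblast-like cells (7 higher, 0 lower), the minimum of 50 gave 4 higher, doublet removal 3 higher, no minimum 9 lower and the 1.5-fold threshold 1 lower. In endothelial-like cells (6 higher, 0 lower), the minimum of 50 gave 3 higher, and no minimum 11 higher and 3 lower. Outside macrophage-like cells the log2 ratio of summed C1q was 0.015 with all cells and 1.31 without cells holding 10 or more C1q UMIs, an alternative added after seeing the data.

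No paired analysis was possible because each group has 1 library and no test was run, and no replicate could be left out. Depth limits rare members: C3 and Cfb rest on 402 and 433 UMIs in all cells. Thinning to 1000 UMIs gave C3ar1 in 22.2% of Sham and 31.1% of TBI macrophage-like cells (40.3% and 54.6% unthinned), and C5ar1 in 22.2% and 22.1% (34.4% and 43.1% unthinned). Leaving out the cell with the most UMIs of a gene in each library, added after seeing the data, turned the sign of C3 in macrophage-like cells to 0.067, of C4b there to 0.16 and of Serping1 in fibroblast-like cells to 0.074.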

Other observations

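Barcodes left out only for hemoglobin (289 in Sham and 174 in TBI) held C1q as well. Scaled without hemoglobin UMIs, C1qa was at 341 CPM in Sham (14 barcodes with a UMI) and 825 in TBI (10 barcodes), below the 1331 and 1728 CPM of kept cells scaled the same way. Serping1 was at 3.07 CPM (1 UMI) and 108 CPM (26 UMIs) in them, and C3 had 1 and 0 UMIs.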
